A study of Mus musculus with 2 samples.

Results

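The genes described here encode 9 enzymes that make, break down or store retinoic acid: Aldh1a1, Aldh1a2, Aldh1a3, Rdh10, Dhrs3, Cyp26a1, Cyp26b1, Cyp26c1 and Lrat. They were chosen by name, as the non-control probes that carry these gene names on a mouse expression array of 39429 probes, and each has 1 probe. In 8 of the 9 the probe was well above background in all 4 channels, the software's own mark for a spot brighter than its local background, and these 8 are among 21978 genes tested. The Cyp26c1 probe passed in no channel and has no ratio.

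Total RNA came from ureters dissected from NMRI mouse embryos at E14.5, counted in days of gestation. One genotype, called Bmp4cKO, is Tbx18(cre/+);Bmp4(fl/fl): cre is expressed from the Tbx18 locus, active in ureteric mesenchyme, and both Bmp4 alleles are floxed. The control genotype is Tbx18(+/+);Bmp4(fl/?), which has no cre and also carries a floxed Bmp4 allele. There were 2 arrays with 2 colours each, and each array held 1 RNA of either genotype. Replicate 1, labelled female, had AlexaFluor647 (red) on the control RNA and AlexaFluor555 (green) on the other, and replicate 2, labelled male, had them exchanged. The sources used here do not give whether embryos were pooled, and the p-values measure only the spread between these 2 arrays.

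Retinoic acid is a small signal made from vitamin A. Retinol is oxidised to retinaldehyde, chiefly by RDH10 in the embryo, and the ALDH1A enzymes oxidise retinaldehyde to retinoic acid, which binds nuclear receptors and switches target genes on. DHRS3 reduces retinaldehyde back to retinol, LRAT joins retinol to a fatty acid for storage, and the CYP26 enzymes oxidise retinoic acid to inactive products. In the developing kidney and ureter, retinoic acid made in the mesenchyme is known to act on the neighbouring epithelium, and Cyp26a1 and Dhrs3 are themselves well-known targets of retinoic acid.

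The targeted gene went against the labels. Processed signals are intensities that the scanner software had corrected for background and dye. The tested Bmp4 probe had 29491 and 27393 in the RNA labelled Bmp4cKO. In the RNA labelled control its signals were 3613 and 1973. A second Bmp4 probe was well above background in no channel and has no ratio. Ratios are given as log2 with the RNA labelled Bmp4cKO on top, and that of Bmp4 was 3.38 ± 0.48 (SD, n = 2 arrays; limma adjusted p = 0.016), higher on both arrays. The tested probe lies on chromosome 14 from 47003391 to 47003450 of mm9. Its place relative to the floxed part was not analysed here, so the probe checks the labels only if the deletion removes its signal. The sex-linked genes did not match the labels on replicate 2 either: Ddx3y, a Y-linked gene, had a signal of 2720 in the RNA labelled control and was too dim for the software's mark in the other. Xist, expressed from the inactive X chromosome of females, had a signal by its brighter probe of 2120 in the RNA labelled Bmp4cKO, against 85.2 on the control side of the same array, and at 2348 and 2794 on replicate 1. The RNAs compared on replicate 2 thus differed in sex-linked transcripts as well as in genotype label, and the part of this in the ratios of replicate 2 was not tested. The members are on autosomes. Tbx18, the locus that carries cre in the Bmp4cKO genotype, had log2 ratios of 0.85 and 1.08 (limma adjusted p = 0.039). All directions below follow the dye labels, are also stated against Bmp4, and turn over if the dye labels are exchanged on both arrays. Of the markers of ureter cells, all 10 urothelial, all 7 smooth muscle and all 7 mesenchymal genes were measured.

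The 3 ALDH1A genes, whose products carry out the last step of synthesis, fell in the RNA labelled Bmp4cKO, opposite to Bmp4, and Rdh10, for the step before, had a smaller difference that did not pass the test. Of the breakdown genes Cyp26b1 fell and Cyp26a1 was higher on both arrays without passing. Among the genes that turn retinoids back to retinol or store them, Dhrs3 was lower and Lrat higher on both arrays, and neither passed. Thus 6 of the 8 were lower on both arrays and 2 higher on both, beside 30.6% and 28.2% of all genes. In all, 4 of the 8 tested members were called lower (limma, Benjamini-Hochberg adjusted p under 0.05 over all genes tested) and 0 higher. Over all genes 1.03% were called lower and 0.892% higher. At an unadjusted limma p under 0.05 the members numbered 6 lower and 2 higher, beside 1620 and 1575 of all 21978 genes tested. An intensity trend in the variance model called 1 member and 614 genes higher. With median centring of each array in place of loess, or with no normalization, 0 members were called by limma in either direction, while their log2 ratios moved by little. The adjusted p of the 3 ALDH1A genes was then 0.30 and 1, and that of Cyp26b1 0.36 and 1.

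**Figure D1:**
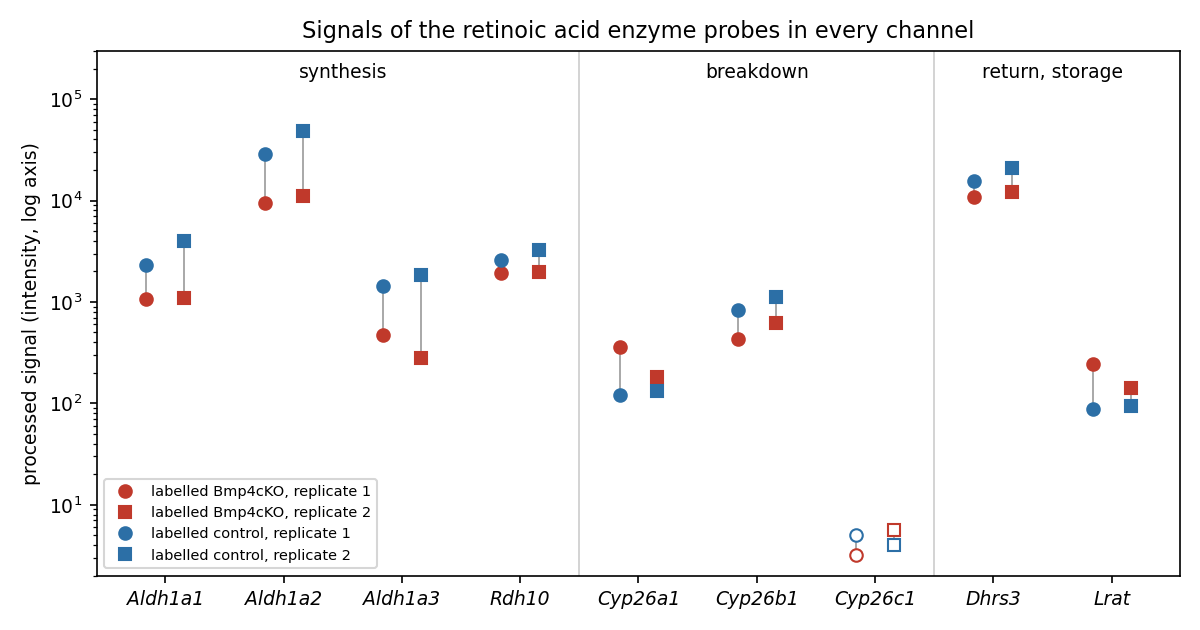
Processed signal (intensity, log axis) of each enzyme probe in the 4 channels, with red for the RNA labelled Bmp4cKO, blue for the RNA labelled control, circles for replicate 1 and squares for replicate 2; lines join the channels of an array and open symbols are not well above background. On both arrays the blue points of the 3 ALDH1A genes lie above the red, those of Cyp26a1 and Lrat below, and Cyp26c1 is at 3.18 to 5.69. Heights of different probes cannot be compared.

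Aldh1a2 encodes the main retinaldehyde dehydrogenase of embryonic mesenchyme. Its processed signal was 9449 on replicate 1 and 11031 on replicate 2 in the RNA labelled Bmp4cKO, against 28917 and 48710 in the RNA labelled control. Both values of the RNA labelled control were above both of the RNA labelled Bmp4cKO. How many of all genes separate in this way was not counted, and the 2 values of a group carry different dyes. The resulting log2 ratios of -1.50 and -2.15 averaged -1.83 ± 0.46 (SD, n = 2 arrays; limma adjusted p = 0.026), or 3.55-fold lower. Its mean was the 29th lowest of all genes tested. The probe lies on chromosome 9 from 71143931 to 71143990 of mm9, plus strand, in the transcript NM_009022. Whether the probes lie in coding or untranslated sequence is not annotated in the files.

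Upstream sequence was searched in RefSeq windows of build GRCm38.p6, from 250 bases before to 50 after a transcript start. For 7 of the 9 members 10 windows were at hand. Aldh1a3 and Rdh10 had no window and were not searched. The motif GGCGCC is a GC-rich element described for BMP-activated SMAD proteins, and reads the same on both strands. It was in 11.9% of all 32851 windows and, among the searched members, only in that of Aldh1a2, 2 times. That window had a GC content of 78%, against 43.3% and 47% in the windows of Aldh1a1 and a median of 52.7% over all windows, and GGCGCC is more frequent where GC is high. The 250 bases before the Aldh1a2 start, chr9:71215539-71215788 on the plus strand, are shown with the motif in capitals, as the upstream sequence of the ALDH1A gene with the smallest adjusted p.
Aldh1a2 upstream: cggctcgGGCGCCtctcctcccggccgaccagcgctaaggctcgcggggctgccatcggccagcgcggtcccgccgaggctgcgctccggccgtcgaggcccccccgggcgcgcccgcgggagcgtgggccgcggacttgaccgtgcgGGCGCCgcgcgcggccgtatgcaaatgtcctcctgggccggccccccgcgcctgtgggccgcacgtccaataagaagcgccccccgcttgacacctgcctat

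Aldh1a3, another retinaldehyde dehydrogenase, had the lowest mean of the members. Signals were 477 and 281 in the RNA labelled Bmp4cKO and 1444 and 1849 in the RNA labelled control. On the log2 scale the ratios were -1.59 and -2.55, averaging -2.07 ± 0.68 (SD, n = 2 arrays; limma adjusted p = 0.034), 4.21-fold lower and the 14th lowest of all genes. With a prior that allows for outlying variances its limma adjusted p was 0.055. The probe lies on chromosome 7 from 73535785 to 73535844, minus strand.

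Aldh1a1 encodes the third retinaldehyde dehydrogenase, a cytosolic enzyme also abundant in adult liver and epithelia. Signals were 1077 and 1099 in the RNA labelled Bmp4cKO, nearly the same on both arrays, and 2315 and 3984 in the RNA labelled control. They gave log2 ratios of -1.13 and -1.80, averaging -1.47 ± 0.48 (SD, n = 2 arrays; limma adjusted p = 0.038), 2.77-fold lower, and the adjusted p was 0.051 with the scanner software's processed signals. The probe is on chromosome 19 from 20717764 to 20717823, plus strand. Aldh1a7, a close mouse relative of Aldh1a1 singled out after its values were seen, has a probe of its own with log2 ratios of 0.52 and 0.12 (limma adjusted p = 0.43). Each of the 3 ALDH1A genes was at least 2-fold lower on both arrays, which 0.619% of all genes were, and no member was at least 2-fold higher on both, as were 0.582% of all genes.

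Rdh10 encodes the retinol dehydrogenase that supplies most retinaldehyde in the embryo. Its signals were 1928 and 1987 in the RNA labelled Bmp4cKO and 2570 and 3234 in the RNA labelled control. This gave log2 ratios of -0.36 and -0.71 and a mean of -0.53 with a 95% interval from -0.89 to -0.17 (limma adjusted p = 0.17). It passed only with the intensity trend, at an adjusted p of 0.049. The ratio of each ALDH1A gene was below that of Rdh10 on both arrays. The difference on the log2 scale was -0.94 ± 0.23 for Aldh1a1, -1.30 ± 0.21 for Aldh1a2 and -1.54 ± 0.43 for Aldh1a3 (SD, n = 2 arrays). An exact permutation test on 2 arrays cannot go below a two-sided p of 0.5, so such differences are given without a test. Within the ALDH1A genes the order of the ratios was the same on both arrays, with Aldh1a3 below Aldh1a2 by only 0.09 on replicate 1 and by 0.40 on replicate 2.

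**Figure D2:**
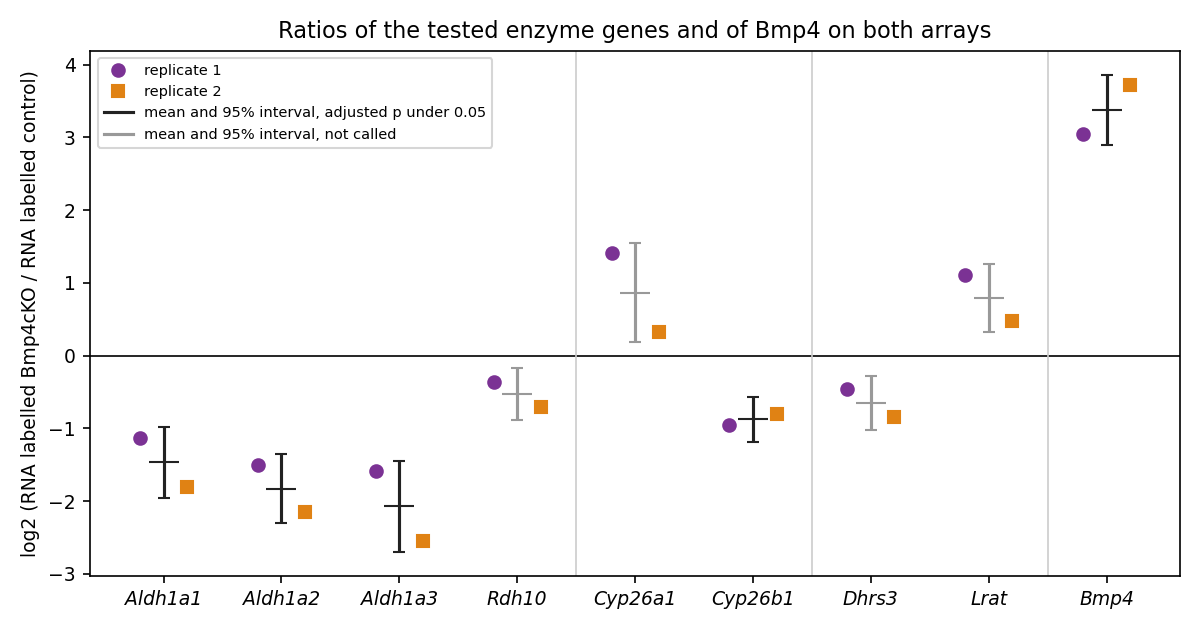
Log2 ratio, positive where the RNA labelled Bmp4cKO was higher, for the 8 tested members and Bmp4, with replicate 1 as circles, replicate 2 as squares, and the mean with its 95% limma interval, black where the adjusted p is under 0.05. The 3 ALDH1A genes lie between -1.13 and -2.55 and Bmp4 at 3.04 and 3.71.

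Of the breakdown genes, Cyp26b1 fell and Cyp26a1 did not pass the test. Cyp26b1, whose product clears retinoic acid in many embryonic tissues, had signals of 431 and 614 in the RNA labelled Bmp4cKO and 826 and 1130 in the RNA labelled control. The RNA labelled control was higher on both arrays. Its log2 ratios of -0.95 and -0.80 averaged -0.87 ± 0.11 (SD, n = 2 arrays; limma adjusted p = 0.043), 1.83-fold lower, and were the closest pair among the members. The call was lost in fits of the 4 channels as separate samples, with an adjusted p of 0.12 with no replicate block and 0.11 with a dye term. Its probe is on chromosome 6 from 84521952 to 84522011, minus strand.

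Cyp26a1 encodes the family member that retinoic acid induces most directly. Signals were 357 and 181 in the RNA labelled Bmp4cKO and 121 and 132 in the RNA labelled control, so the RNA labelled control was lower on both arrays, but on replicate 2 by a small margin. The log2 ratios were 1.41 and 0.33, in the direction of Bmp4, and their mean of 0.87 had a 95% interval from 0.18 to 1.55 (limma adjusted p = 0.24). It was called in 0 of 15 alternative settings, with adjusted p-values from 0.09 to 1. The ratio of Cyp26a1 exceeded that of Cyp26b1 by 2.36 on replicate 1 and by 1.12 on replicate 2. This difference has no test, and with 1 ratio on either side of 0 their mean is close to 0.

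Cyp26c1, the neighbour of Cyp26a1 on chromosome 19, had signals between 3.18 and 5.69 in the 4 channels, none well above background, and no fold is given. In mm9 its probe lies from 37767436 to 37767495 and that of Cyp26a1 from 37775566 to 37775625, 8070 bases apart, both on the plus strand. The 60-base probes are shown because they are the stretches by which these neighbours were told apart, 1 measured and 1 not. Each holds 1 forward reading frame without a stop codon.
Cyp26a1 probe: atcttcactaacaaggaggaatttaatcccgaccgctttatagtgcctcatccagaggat
Cyp26c1 probe: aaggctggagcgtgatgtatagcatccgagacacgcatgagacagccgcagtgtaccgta

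The upstream windows were also searched for the direct repeat bound by retinoic acid receptors: 2 copies in the same orientation with 5 bases between, on either strand, each copy being AGGTCA or else the variant AGTTCA or else the variant GGGTCA or else the variant GGTTCA. It was in 0.0974% of all windows and, among the searched members, only in that of Cyp26a1. There it lay 32 to 16 bases before the start, at chr19:37697776-37697792. The repeat reads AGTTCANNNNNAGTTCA on the opposite strand, and capitals mark it here within 30 bases of the plus strand, chr19:37697770-37697799.
Cyp26a1 upstream: taaagaTGAACTTTGGGTGAACTaatttgt
The same units with 2 bases between were in 0.268% of windows and in none of the members'. Of 31 genes whose window holds the 5-base form, 11 were tested, 0 were called by limma, and the median log2 ratio was 0.02. On both arrays 6 of them were higher and 3 lower, beside 28.2% and 30.6% of all genes. A match is a string of letters, not a measured site.

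Dhrs3 encodes an enzyme that returns retinaldehyde to retinol and so opposes RDH10. Its signals were 10912 and 12239 in the RNA labelled Bmp4cKO and 15668 and 20854 in the RNA labelled control. The log2 ratios were -0.45 and -0.85, a mean of -0.65 with a 95% interval from -1.02 to -0.28 (limma adjusted p = 0.12). They lay close to those of Rdh10, with a difference of -0.12 ± 0.03 (SD, n = 2 arrays). The probe is on chromosome 4 from 144517485 to 144517544, plus strand.

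Lrat, the enzyme that stores retinol as esters, went with Bmp4. Its signals were 246 and 143 in the RNA labelled Bmp4cKO and 89.0 and 93.6 in the RNA labelled control, with a smaller gap on replicate 2. The log2 ratios were 1.11 and 0.47, a mean of 0.79 with a 95% interval from 0.32 to 1.26 (limma adjusted p = 0.13), and only the intensity trend brought it past the threshold, at 0.042. Lrat exceeded Dhrs3 by 1.56 and 1.32 on the log2 scale on the 2 arrays. The probe is on chromosome 3 from 82696805 to 82696864, minus strand.

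By class, the median log2 ratio of the 4 synthesis genes was -1.65, with -1.32 on replicate 1 and -1.98 on replicate 2, beside a median of -0.01 over all genes tested. All 4 were lower on both arrays. The 2 tested breakdown genes had a median of -0.0036, at 0.23 and -0.23 on the arrays. Dhrs3 and Lrat together had a median of 0.07, at 0.33 and -0.19. Synthesis minus breakdown was -1.55 on replicate 1 and -1.74 on replicate 2, without a test. The classes other than synthesis hold 1 gene on either side of 0, so their medians describe neither gene.

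On replicate 2 the ratio was below that on replicate 1 in 7 of the 8 tested members, Cyp26b1 being the exception, beside 11488 of all 21978 genes. The falls of the ALDH1A genes were therefore larger on replicate 2 and the positive ratios of Cyp26a1 and Lrat smaller. With the dyes exchanged, this difference is also that between the dyes, and array, dye orientation and sex label changed together and cannot be told apart. The sex-linked difference between the RNAs of replicate 2 belongs to that array as well.

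**Figure D3:**
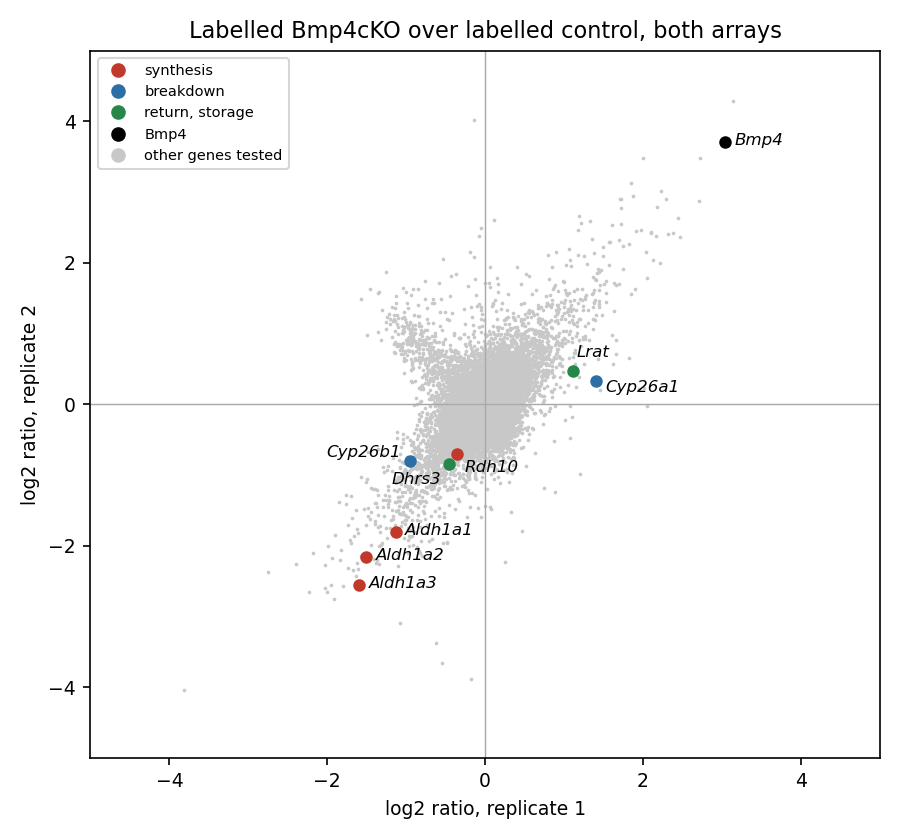
Log2 ratio on replicate 1 (x axis) against replicate 2 (y axis) for all genes tested in grey, with the enzyme genes coloured by class and Bmp4 in black. The ALDH1A genes lie at the lower left end of the cloud, Bmp4 at the upper right, and Cyp26a1 and Lrat to the right near 0 on replicate 2.

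The genes whose pair of ratios lay nearest to those of the called members were named by Euclidean distance over the 2 arrays. Next to Aldh1a1 were Smoc2, also a kidney stroma marker, at a distance of 0.09, Gm10413 at 0.11 and Gm3411 at 0.13. Aldh1a2 was followed by B4galnt2 at 0.07, Prph at 0.11 and Pnoc at 0.15, and Aldh1a3 by Dclk3 at 0.07, Tinag at 0.13 and Evx1 at 0.21. Nearest to Cyp26b1 was Stra6, the membrane receptor for retinol uptake, at 0.02, with ratios of -0.97 and -0.78. Dlgap1 at 0.04 and Rassf9 at 0.04 came next. With 2 arrays a small distance says only that both ratios were alike.

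Other enzymes of retinoid metabolism were not called. Of 27 listed, 17 were tested, 0 were called in either direction by limma, and the median was -0.04. On both arrays 5 were lower and 6 higher, beside 30.6% and 28.2% of all genes. Cyp1b1, a cytochrome P450 that can also make retinoic acid from retinol, was nearest to the threshold. Its signals were 629 and 379 in the RNA labelled Bmp4cKO and 1234 and 1447 in the RNA labelled control. Cyp1b1 had log2 ratios of -0.96 and -1.77 and a mean of -1.37 (limma adjusted p = 0.056), and it passed in 5 alternative settings. Lpl, a lipase that also acts on retinyl esters in lipoproteins, came next with a mean of -0.34 (limma adjusted p = 0.33). For 7 of the listed enzymes no channel was well above background: Rdh7, Rdh16, Sdr16c5, Sdr16c6, Dhrs9, Adh4 and Adh7.

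Among 15 receptors and binding proteins 14 were tested, and Stra6 was called lower, averaging -0.87 ± 0.13 (SD, n = 2 arrays; limma adjusted p = 0.045). None was called higher, and the median was 0.07. Of 15 genes known to respond to retinoic acid in other settings 13 were tested, 2 were called lower and 0 higher, and the median was -0.10. These were Stra6 and Ret, the GDNF receptor of the ureteric bud, with -1.20 ± 0.05 (SD, n = 2 arrays; limma adjusted p = 0.024). Stra6 is in both lists, and Ret also counts among the bud tip markers below. In fits of separate channels with no replicate block or with a dye term Stra6 did not pass, at adjusted p-values of 0.091 and 0.092. Genes of both lists thus lay on either side of 0. Among receptors and binding proteins 4 were lower and 7 higher on both arrays, and among responsive genes 6 and 4. Over all genes 30.6% were lower and 28.2% higher on both arrays, and 1.03% were called lower.

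Some cell type markers were called lower, as the ALDH1A genes were, and others higher, as Bmp4 was. Over all genes 1.03% were called lower and 0.892% higher, and 30.6% were lower and 28.2% higher on both arrays. In bulk RNA fewer cells of a type and less RNA per cell cannot be told apart. Summed signals are given for each list in the RNA labelled Bmp4cKO and then in the RNA labelled control. A sum follows its brightest probes, so the median log2 ratio over the tested genes is given too.

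Beside the fall of the ALDH1A genes, 2 of 6 kidney stroma markers were called lower, with a median of -0.65 and sums of 99727 and 123540 against 133909 and 182066. Of 7 nephron markers 6 were tested and 2 called lower, Lhx1 and Wt1, with a median of -0.54 and sums of 31441 and 27095 against 32380 and 42870. Eya1, which was not called, makes up 25606 of the first of these sums, and Nphs1, a podocyte gene, passed the background mark in no channel. In this nephron list 4 genes were lower on both arrays and 1 higher, Cited1, with log2 ratios of 0.65 and 0.37. Six2 had 1.21 on replicate 1 and -0.99 on replicate 2. Of 6 bud tip and collecting duct markers 2 were called lower, with a median of -0.57 and sums of 3202 and 3047 against 4790 and 6209. Of 6 neuron and Schwann cell markers 3 were called lower, with a median of -0.86 and sums of 3721 and 3565 against 5077 and 5279. Of 7 gonad and Wolffian duct markers 3 were tested and 0 called by limma, with a median of -0.19 and sums of 752 and 530 against 906 and 688, and Amh, Dazl and Esr1 were not well above background in any channel.

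In the direction of Bmp4 and of the positive ratios of Cyp26a1 and Lrat, 6 of 10 urothelial markers were called higher, with a median of 1.55 and sums of 79554 and 82978 against 37803 and 42650. Krt18, which was not called, and Krt8, which was, have the brightest probes of that list, at 35245 and 22137 on replicate 1 in the RNA labelled Bmp4cKO. Of 7 smooth muscle markers 3 were called higher, with a median of 1.29 and sums of 31532 and 46881 against 19456 and 16838. Of 5 mesothelial markers 3 were called higher and 1 lower, with a median of 1.32 and sums of 23426 and 27434 against 12903 and 13459. The one called lower was Wt1, the same gene as in the nephron list, at -1.34 (limma adjusted p = 0.026). Lrrn4, not called, had -0.24 and -0.55, so 3 mesothelial markers were higher and 2 lower on both arrays. Krt19 makes up 20631 and 23998 of the mesothelial sums in the RNA labelled Bmp4cKO. Of 7 ureteric mesenchyme markers 2 were called higher, Gata6 and Tbx18, with a median of 0.25 and sums of 44633 and 55983 against 31455 and 40032. Tbx18 is also the locus that carries cre in the Bmp4cKO genotype. On both arrays 4 of these markers were higher and 1 lower, Tshz3, beside 28.2% and 30.6% of all genes. Tbx2 and Sox9 had opposite signs on the 2 arrays.

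None of 5 endothelial markers was called by limma, with a median of 0.34 and sums of 24294 and 31753 against 19180 and 21277. All 5 were higher on both arrays, as were 28.2% of all genes. None of 4 leukocyte markers was called either, with a median of 0.04 and sums of 4283 and 3985 against 3931 and 4340. Among them Ptprc, the pan-leukocyte surface phosphatase CD45, had log2 ratios of -0.76 and -0.83 and lay just short of the threshold (limma adjusted p = 0.0501), singled out after its values were seen. The part of these cell types in the ratios of the enzyme genes was not tested.

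**Figure D4:**
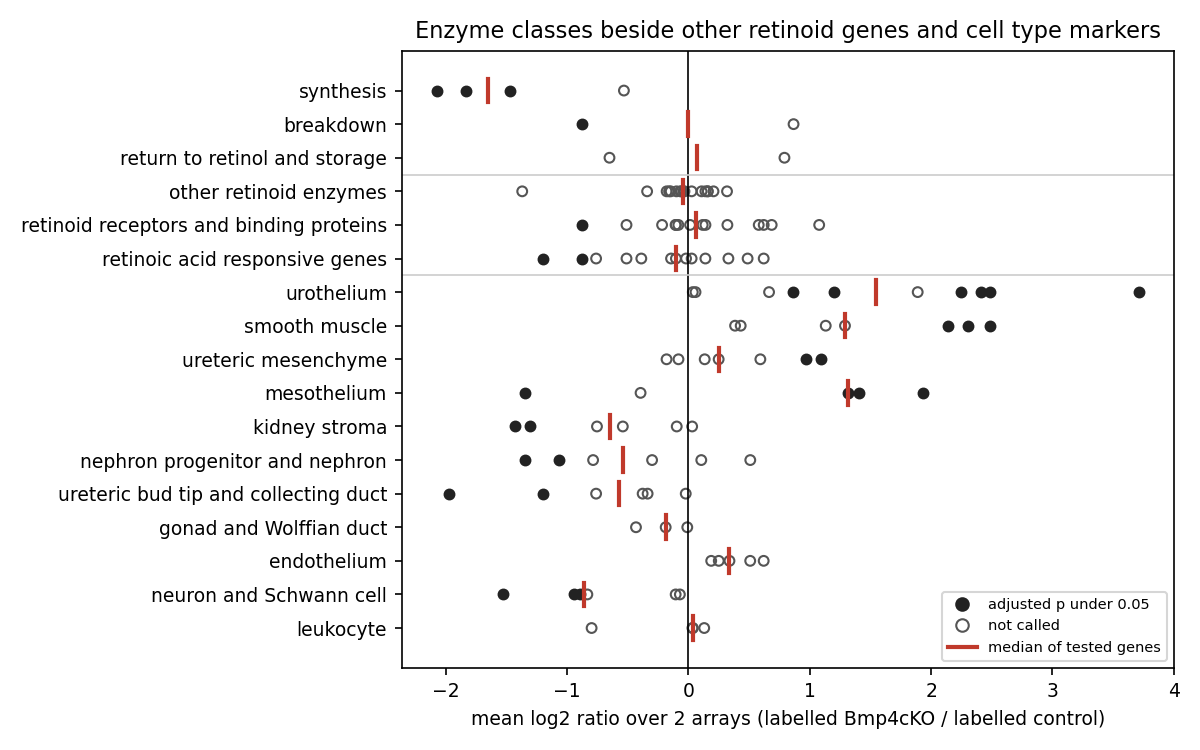
Mean log2 ratio over 2 arrays (x axis) of every tested gene in the enzyme classes, the other retinoid lists and the cell type marker lists, filled where the adjusted p is under 0.05, with a red bar at each list's median. Synthesis has a median of -1.65, and the medians of the other retinoid lists lie near 0. The medians of urothelial and smooth muscle markers lie to the right. Those of kidney stroma, nephron, bud tip and neuronal markers lie to the left, with single nephron genes on either side of 0.

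The authors' deposited table gives these probes the opposite sign. In it the signed fold is 3.06 and 4.42 for Aldh1a2, 3.03 and 6.58 for Aldh1a3 and 2.15 and 3.63 for Aldh1a1 on the 2 arrays, and -8.16 and -13.9 for Bmp4. Cyp26a1 in the authors' deposited table has -2.95 and -1.37, and Lrat -2.77 and -1.52. The order of its ratio is not stated in the sources used here. In that table as in the ratios above, the ALDH1A genes and Cyp26b1 are opposite to Bmp4, and Cyp26a1 and Lrat have the sign of Bmp4.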

How the data were processed

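Spots were quantified by the authors in Agilent Feature Extraction 10.7.3.1, with mm9 probe positions, per the file headers. The deposited spot, background and processed values are intensities. A log10 ratio, red over green, is also deposited and entered no value given here. The authors' deposited value table holds a score per probe, a signed fold by comparison with the scanner values. Its scale matches the processed signals, its direction is unstated, and the median of both columns is 1.

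Mean spot signals were corrected against median local background with normexp (offset 50), which keeps all values above 0, normalized by loess within each array with control spots at weight 0, and turned by the dye labels (limma 3.58.1, R 4.3.3). Plain subtraction was an alternative. There were 44397 spots per array, 1377 of them controls, 0 probe spots were saturated, and 231 and 235 outlier spots were left out. Between 69.3% and 74.6% of probe spots per channel were well above background. The number of arrays, 2, limits the precision. Probes well above background in both channels of a group were kept, and a gene was its brightest probe. RefSeq tables of GRCm38.p6 named 31001 of 39429 probes. Ratios were fitted with lmFit and eBayes (1 residual and 4.05 prior degrees of freedom), a ratio within an array being paired by construction, and the fit was tested on simulated data. Members and lists were chosen with earlier results of these data known. Named were all members, Bmp4 and Tbx18, every called gene of a retinoid list (where none was called, the 2 largest by size) and the 3 nearest genes to each called member. Other settings are given in the closing section.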

Additional observations from a re-analysis of the deposited data

Results flagged for a closer look

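Some medians had one sign on replicate 1 and the other on replicate 2. The arrays differ in sex label and in dye orientation, and none of these differences was tested. The median log2 ratio on replicate 2 minus that on replicate 1 was -0.46 for the breakdown genes and -0.51 for Dhrs3 and Lrat, although no single gene of either pair changed sign. It was -0.048 for the other retinoid enzymes and -0.092 for the leukocyte markers.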

How the results depend on the processing

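Each of the 8 tested members kept its direction in all 15 alternatives with a test, with the authors' table left out. Only the settings of background correction, processed signals or normalization could change a member's ratio. Those of the filter, the variance model, the mean over probes and the separate channels return the same ratio by construction. Counting these too, 398 of 484 alternative values kept direction and side of the threshold or moved by little. With median centring in place of loess 0 members and 0 genes of either direction were called (841 genes higher and 918 lower at an unadjusted p under 0.05). With no normalization 0 members, 1 gene lower and 0 higher were called. Both also left 0 receptors and binding proteins and 0 responsive genes called lower. The cause was not tested. Over all genes, plain subtraction gave 388 lower and 339 higher, normexp with offset 0 gave 488 and 421, and the intensity trend 672 and 614, beside 227 and 196. The trend called 1 member higher, Lrat. Of the other retinoid enzymes 1 was called lower with plain subtraction, offset 0, a minimum processed signal of 100, the trend, or a dye term, and 1 receptor or binding protein was called higher with offset 0 and 2 with the trend.

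A ratio within an array already holds the replicate block. Separate channels with no replicate block called 3 members, 171 genes lower and 155 higher, and 3, 220 and 195 with a dye term. In both, 0 receptors and binding proteins and 1 responsive gene were called lower. The median of the breakdown genes turned to 0.043 with plain subtraction, 0.034 with offset 0 and 0.049 with processed signals, and ranged from -0.23 to 0.23 when either replicate was left out. That of Dhrs3 and Lrat ranged from -0.19 to 0.33, and synthesis minus breakdown from -1.74 to -1.55. Counts of calls have no value for a single array, which leaves no test.

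The authors' deposited table, in its own sign, reversed every ratio: 1.48 for Aldh1a1, 1.88 for Aldh1a2, 2.16 for Aldh1a3, 0.56 for Rdh10, 0.65 for Dhrs3, -1.01 for Cyp26a1, 0.91 for Cyp26b1, -1.04 for Lrat, -3.41 for Bmp4, -0.99 for Tbx18, 1.45 for Cyp1b1, 0.37 for Lpl, 0.86 for Stra6 and 1.47 for Ret. The synthesis median became 1.68, that of Dhrs3 and Lrat -0.20, and synthesis minus breakdown 1.73. That table gave 0 members lower and 4 higher, 338 genes higher, 1 receptor or binding protein and 3 responsive genes higher, and 0 of either list lower.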
